A study of Mus musculus with 6 samples.

Results

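Pericytes are the contractile cells that sit on the outer face of capillaries, and tumour pericytes and tumour fibroblasts grow out together when a tumour is digested and plated. The 9 genes described here are in common use as pericyte markers, and they were taken by symbol from the deposited gene tables, 9 of 48368 symbols. They are Rgs5, Rgs4, Cspg4, Mcam, Kcnj8, Abcc9, Ndufa4l2, Higd1b and Myh11. All 9 symbols were found, 8 had at least 1 count in some library, and 6 passed the filter on low counts and were tested.

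The RNA came from primary cancer-associated fibroblasts, cultured in serum after enzymatic digestion and differential centrifugation of mammary tumours. Knockout (KO) libraries were from Hic-5-/- tumours and heterozygous (HET) libraries from Hic-5+/- tumours, with 3 libraries of each, so that the HET cells also carried 1 disrupted allele and no wild-type library entered. All tumours arose in MMTV-PyMT mice, in which a mammary-epithelial viral promoter drives the polyomavirus middle T oncogene. The submitters describe technical triplicates, yet no number recurs in the sample titles apart from 1 that KO replicate 3 and HET replicate 3 have in common. Nothing read here states the age of the animals or says that cultures were separate, so every p-value reflects variation among the 6 libraries, which may be technical. The comparison asks how expression differed between KO and HET cells, Hic-5 being a focal adhesion adaptor encoded by Tgfb1i1.

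Totals were 24954273 to 42470598 estimated counts per library. Levels are in CPM, a gene's count relative to the TMM-scaled size of its library. On unscaled totals, 3 counts, the limit that a count of 0 allows, correspond to between 0.0706 and 0.1202 CPM, counting error only. Tgfb1i1 stood at 90.4, 0.232 and 156 CPM in KO replicates 1 to 3 and at 223, 348 and 125 CPM in HET replicates 1 to 3, a log2 fold change of -1.50 ± 1.54 (SE; edgeR adjusted p = 0.756). Its transcript was nearly absent from 1 of the 3 KO libraries, and the groups overlapped. KO replicate 2 also had little transcript of the collagen gene Col1a2 (0.491 CPM, against 577 and 876 CPM in the other KO libraries and 1009 to 5109 CPM in HET libraries) and the most of the keratin gene Krt18 (37.9 CPM, and at most 2.93 CPM in any other library). Results below are therefore given for labelled groups and for each library. In bulk RNA, fewer cells of a type and less RNA per cell cannot be told apart.

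As background, mural cells are held to vessels by PDGF receptor beta and Notch3 signalling and set vessel tone. Their markers fall into functional groups. RGS proteins switch off G protein signals from vasoactive receptors. NG2, the product of Cspg4, and MCAM, also called CD146, are surface proteins of the cell's contacts. Kir6.1, encoded by Kcnj8, and SUR2, encoded by Abcc9, form a channel that couples energy state to membrane potential. NDUFA4L2 and HIGD1B belong to families of small mitochondrial proteins, and MYH11 is the heavy chain of smooth muscle myosin, which is more a marker of smooth muscle than of capillary pericytes. Several of these genes are not restricted to pericytes, since fibroblasts, glia and tumour cells can also express Rgs4, Cspg4 and Mcam.

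The markers did not behave as 1 block. Rgs4, Ndufa4l2 and Myh11 had lower means in KO libraries, Rgs5 and Cspg4 had higher means that each came from a single KO library, and Mcam had like means in both groups. Kcnj8, Abcc9 and Higd1b were at or near 0 everywhere. None of the 6 tested markers passed edgeR's quasi-likelihood test after Benjamini-Hochberg adjustment over all 17584 genes tested, where 0 genes (0%) passed; 2 of the 6, Rgs4 and Ndufa4l2, had an unadjusted p under 0.05 and both were lower in KO, beside 8.59% of all tested genes at that p, 4.29% lower and 4.3% higher. When libraries were scaled by size only, the share at that p was 9.85%, 3.03% lower and 6.82% higher, and both markers had an unadjusted p under 0.05 there too. Rgs4 did not in edgeR with a block on the shared title number (unadjusted p = 0.0699, adjusted p = 0.737) or without KO replicate 3 (0.108), HET replicate 1 (0.0595), HET replicate 2 (0.143) or the pair that shares a title number (0.104), and Ndufa4l2 did not in limma-voom (0.0624). DESeq2 placed 1 marker, Ndufa4l2, past its adjusted threshold, beside 1.05% of the genes to which it gave an adjusted p, 0.754% called lower in KO and 0.291% called higher.

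**Figure D1:**
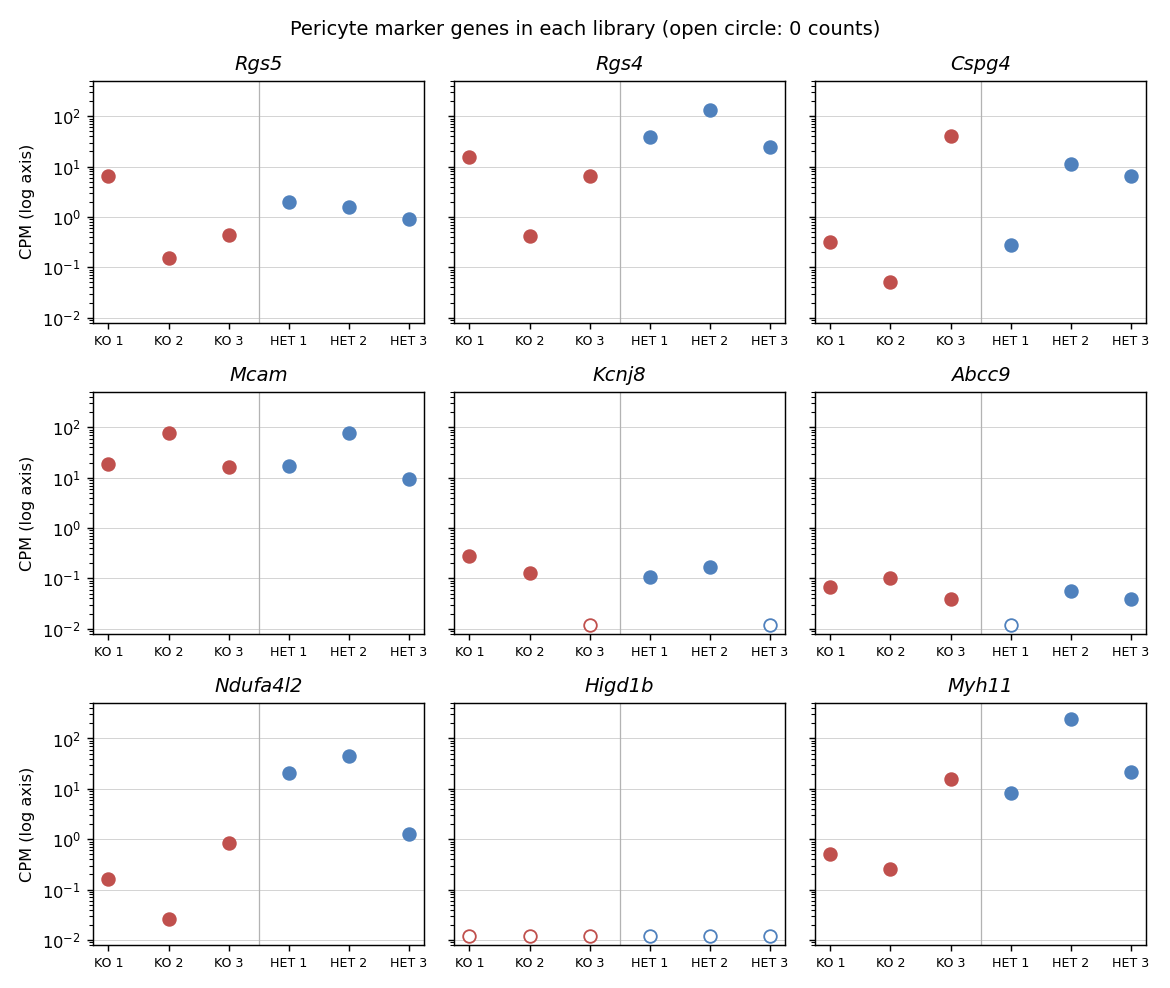
Level of each of the 9 pericyte marker genes in each of the 6 libraries (CPM, log axis), with KO libraries left in red and HET libraries right in blue; open circles mark 0 counts and are placed at the foot of the axis. Rgs4 and Ndufa4l2 are the genes whose KO and HET libraries do not overlap, and Higd1b has no count in any library.

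Rgs5 and Rgs4 encode small GTPase-activating proteins that shorten signalling by Gi and Gq alpha subunits, and Rgs5 is widely used to mark pericytes. They lie side by side on mouse chromosome 1 (GRCm38, GENCODE M21), Rgs5 at chr1:169655501-169695813 on the plus strand and Rgs4 at chr1:169741477-169747642 on the minus strand, 45663 bases apart and with 0 protein-coding genes between them. Their upstream sequences are shown because the neighbours had unlike levels and unlike library patterns. RefSeq's promoter table (GRCm38.p6) held 6 of the 9 markers. The 250 bases before the start of each gene are printed 5′ to 3′ on the gene's strand, with a TATA box (TATAAA) in capitals:
Rgs5 (chr1:169655251-169655500, plus strand): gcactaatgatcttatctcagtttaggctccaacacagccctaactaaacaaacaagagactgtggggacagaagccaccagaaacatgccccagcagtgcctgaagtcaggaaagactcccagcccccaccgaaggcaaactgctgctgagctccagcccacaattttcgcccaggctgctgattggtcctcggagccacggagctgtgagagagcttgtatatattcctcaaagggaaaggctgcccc
Rgs4 (chr1:169747643-169747892, minus strand): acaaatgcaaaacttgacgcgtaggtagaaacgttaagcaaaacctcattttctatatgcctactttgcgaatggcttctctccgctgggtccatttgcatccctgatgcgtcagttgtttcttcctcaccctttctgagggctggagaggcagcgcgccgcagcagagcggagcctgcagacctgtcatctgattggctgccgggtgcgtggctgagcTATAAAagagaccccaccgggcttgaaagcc
The Rgs4 sequence held 1 match of TATAAA, beginning 31 bases before the start, and the Rgs5 sequence held no match of these exact letters on either strand. Near its end, however, the Rgs5 sequence holds the similar run tatatatt, which the search did not count. The search thus does not set Rgs5 apart as a gene without a TATA box. TATAAA was found in 12.4% of 32851 promoter windows of the same length. Neither sequence held a GC box (GGGCGG, in 32.7% of windows), the RBPJ motif TGGGAA through which Notch receptors act (in 21.6%) or a CArG box, the motif of serum response factor (in 1.47%), on either strand. These are matches of letters only.

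Rgs5 was low throughout and highest in a KO library. It stood at 6.48, 0.155 and 0.436 CPM in KO replicates 1 to 3, from 285, 6 and 11 counts, and at 1.98, 1.56 and 0.902 CPM in HET replicates 1 to 3, from 56, 55 and 23 counts. KO replicate 1 lay above every HET library and the other 2 KO libraries lay below every HET library. The means were 2.36 ± 3.58 CPM in KO and 1.48 ± 0.545 CPM in HET (SD, n = 3 each), a log2 fold change of 0.67 ± 1.27 (SE; edgeR adjusted p = 0.877). Without KO replicate 1 the log2 fold change was -2.34 (edgeR adjusted p = 0.53), so that this library alone set the direction.

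Rgs4 was lower in every KO library than in any HET library. It stood at 15.2, 0.413 and 6.54 CPM in KO replicates 1 to 3 and at 39.2, 133 and 24.5 CPM in HET replicates 1 to 3. The groups thus did not overlap, as for 15.5% of all tested genes, 7.42% lower in KO and 8.1% higher; 2 of the 6 tested markers, Rgs4 and Ndufa4l2, were apart. Its means were 7.38 ± 7.42 CPM in KO and 65.6 ± 59.0 CPM in HET (SD, n = 3 each), a log2 fold change of -3.15 ± 1.24 (SE; edgeR unadjusted p = 0.0424, adjusted p = 0.579). Leaving out each library in turn gave log2 fold changes of -4.28 to -2.11, nearest to 0 without HET replicate 2, where Rgs4 was highest. In the pair that shares a title number, KO replicate 3 had 0.267 times the level of HET replicate 3.

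Other members of the RGS family did not share a direction. Of 19 further family members, 10 were tested, 5 lower and 5 higher by fold change (49.1% of all tested genes were lower), and their median log2 fold change was 0.11, and -0.20 to 0.42 with 1 library left out, beside 0.01 over all genes tested. No gene of this or any other list named below passed edgeR's adjusted test. Rgs16, which had the highest mean CPM of these, stood at 121, 18.4 and 533 CPM in KO replicates 1 to 3 and at 35.9, 271 and 129 CPM in HET replicates 1 to 3 (log2 fold change 0.62 ± 1.19, SE). The smallest unadjusted p in the family were those of Rgs12, at 58.2 ± 18.5 CPM in KO and 34.3 ± 2.73 CPM in HET (log2 fold change 0.76 ± 0.26), and Rgs11, at 1.16 ± 0.758 CPM in KO and 4.59 ± 3.48 CPM in HET (-1.98 ± 0.76; SD over 3 libraries for means, SE for log2 fold changes).

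Among 26 vasoactive receptors and G alpha subunits, on which RGS proteins act, 22 were tested. The fold change was below 0 for 17 and above 0 for 5, beside 49.1% of all tested genes below 0. Their median was -0.28 on the log2 scale, and it ran from -0.96 without KO replicate 3 to -0.21 without HET replicate 2. Adra1d, an alpha-1 adrenergic receptor, stood at 4.78, 1.37 and 7.38 CPM in KO replicates 1 to 3 and at 42, 59.0 and 35.7 CPM in HET replicates 1 to 3 (log2 fold change -3.34 ± 0.63, SE; edgeR unadjusted p = 0.00154, adjusted p = 0.579). Ednra, the endothelin A receptor, stood at 0.364, 0.465 and 0.159 CPM in KO libraries and at 12.8, 1.22 and 2.59 CPM in HET libraries (-4.04 ± 1.03). The groups did not overlap for either receptor. The thrombin receptor gene F2r had a log2 fold change of -1.10 ± 0.48 and Gnas, the stimulatory G alpha subunit, one of -1.01 ± 0.45, both with overlap. The other 8 G alpha subunits, all tested, had log2 fold changes between -0.37 (Gnai2) and 1.42 (Gnao1).

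Cspg4 encodes NG2, a transmembrane chondroitin sulphate proteoglycan, and lies at chr9:56865033-56899870 on the plus strand. It was present in part of each group and nearly absent from the rest. KO replicates 1 to 3 had 0.318, 0.0517 and 39.7 CPM, from 14, 2 and 1001 counts, and HET replicates 1 to 3 had 0.283, 11.1 and 6.63 CPM, from 8, 392 and 169 counts. The highest library was KO replicate 3, at 3.56 times the level of the next highest. Means were 13.4 ± 22.8 CPM in KO and 6.02 ± 5.46 CPM in HET (SD, n = 3 each), with a log2 fold change of 1.14 ± 2.12 (SE; edgeR adjusted p = 0.874). Without KO replicate 3 it was -4.99 (edgeR adjusted p = 0.394). Both libraries of the shared title number expressed Cspg4, KO replicate 3 at 5.99 times the level of HET replicate 3.

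Mcam encodes a cell adhesion molecule of the immunoglobulin superfamily and lies at chr9:44134469-44142727 on the plus strand. It had at least 237 counts in every library, more than any other marker had in its lowest library. It stood at 18.8, 76.3 and 16.4 CPM in KO replicates 1 to 3 and at 17.4, 76.3 and 9.3 CPM in HET replicates 1 to 3. Each group thus had 1 high library, replicate 2 in both, and the other 4 libraries lay between 9.3 and 18.8 CPM. The means were 37.2 ± 33.9 CPM in KO and 34.3 ± 36.6 CPM in HET (SD, n = 3 each), so KO over HET was 0.12 ± 0.94 on the log2 scale (SE; edgeR adjusted p = 0.973). This value ran from -0.98 without KO replicate 2 to 1.48 without HET replicate 2.

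KO replicate 2, with its high Mcam, was the library with the lowest level of Rgs5, Rgs4, Cspg4, Ndufa4l2 and Myh11, and the one with the most Krt8 and Krt18 transcript. Epithelial markers summed to 28.8, 103 and 30.2 CPM in KO replicates 1 to 3 and to 70.5, 20.4 and 19.3 CPM in HET replicates 1 to 3, over 12 genes of which 7 of 8 tested were higher in KO by fold change (49.1% of all tested genes were lower). The median of these 8 was 2.53 on the log2 scale, and 0.21 without KO replicate 2. Krt19 went the other way from Krt8 and Krt18 and made up most of the sum in every library except KO replicate 2. It stood at 27.2, 0.542 and 17.8 CPM in KO replicates 1 to 3 and at 64.1, 13.0 and 16.2 CPM in HET replicates 1 to 3. The part of the epithelial markers in the Mcam level was not tested. Among 11 paralogs and ligands of NG2 and MCAM, all tested, 7 were lower in KO and 4 higher by fold change, beside 49.1% of all tested genes lower (median of the list -0.66 on the log2 scale). That median depended on single libraries, being 0 without HET replicate 2, -0.15 without HET replicate 1 and -1.27 without KO replicate 3. Itga3, an integrin chain that can bind NG2, stood at 44.2, 538 and 8.25 CPM in KO replicates 1 to 3 and at 15.6, 10.3 and 7.92 CPM in HET replicates 1 to 3 (4.13 ± 1.47, SE), again with its peak in KO replicate 2. Lama4, the chain of the vascular laminin, was highest in HET replicate 1 at 153 CPM and had means of 30.1 ± 21.4 CPM in KO and 91.4 ± 55.1 CPM in HET (-1.60 ± 0.79, SE).

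The channel genes were at the edge of detection. Kcnj8 had 12, 5 and 0 counts in KO replicates 1 to 3 and 3, 6 and 0 counts in HET replicates 1 to 3, and its highest level was 0.273 CPM. Abcc9 had 3, 4 and 1.4 estimated counts in KO replicates 1 to 3 and 0, 2 and 1 in HET replicates 1 to 3. The genes neighbour each other on chromosome 6, Kcnj8 at chr6:142564837-142571614 and Abcc9 at chr6:142587862-142702315, both on the minus strand and 16247 bases apart. Neither passed the filter, and in the fit without a filter their log2 fold changes were 0.56 ± 1.34 for Kcnj8 and 1.06 ± 1.12 for Abcc9 (SE; edgeR adjusted p = 0.911 and 0.73). A difference between KO and HET was not detectable at this depth for either. Their paralogs Kcnj11 and Abcc8, which form the corresponding channel of pancreatic beta cells, had at most 1 count in any library.

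Higd1b, at chr11:102835849-102838040, had 0 counts in all 6 libraries, which allows a level of up to 0.0706 CPM in the deepest library and 0.1202 CPM in the shallowest, on unscaled totals. Its paralog Higd1a, which is expressed in many tissues and responds to low oxygen, was present in all libraries, at 22.6, 25.5 and 45.6 CPM in KO replicates 1 to 3 and at 84.9, 101 and 40.6 CPM in HET replicates 1 to 3 (log2 fold change -1.28 ± 0.43, SE; edgeR unadjusted p = 0.0237, adjusted p = 0.579). The groups overlapped, since KO replicate 3 lay above HET replicate 3.

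Ndufa4l2 encodes a mitochondrial protein induced by low oxygen, a paralog of the cytochrome c oxidase subunit NDUFA4, and lies at chr10:127514967-127517154 on the plus strand. It had the largest fold change of the 6 tested markers. It stood at 0.159, 0.0258 and 0.833 CPM in KO replicates 1 to 3, from 7, 1 and 21 counts, and at 20.2, 44.2 and 1.29 CPM in HET replicates 1 to 3, from 571, 1553 and 33 counts. The groups did not overlap, but HET replicate 3 stood close to KO replicate 3 and far from the other HET libraries. Means were 0.339 ± 0.432 CPM in KO and 21.9 ± 21.5 CPM in HET (SD, n = 3 each), with a log2 fold change of -6.07 ± 1.66 (SE; edgeR unadjusted p = 0.00951, adjusted p = 0.579). Across the fits that left out 1 library the log2 fold change ran from -7.81 to -5.02, with edgeR adjusted p of 0.393 or more. DESeq2 gave an adjusted p of 0.00075 for a log2 fold change of -6.04.

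The exons of Ndufa4l2 share 32 bases with those of Shmt2, a gene on the opposite strand, and no source read here tells whether reads were counted by strand. Shmt2 stood at 153, 202 and 90 CPM in KO replicates 1 to 3 and at 211, 81.9 and 90.6 CPM in HET replicates 1 to 3, and it was lowest in HET replicate 2, where Ndufa4l2 was highest. Ndufa4 itself differed little, at 109 ± 17.5 CPM in KO and 100.4 ± 34.7 CPM in HET (SD, n = 3 each; log2 fold change 0.12 ± 0.30, SE). Cox4i2, a cytochrome c oxidase subunit isoform, was likewise lowest in KO and intermediate in HET replicate 3, with 0, 0.0258 and 0.476 CPM in KO replicates 1 to 3 and 5.24, 5.32 and 0.667 CPM in HET replicates 1 to 3 (-4.57 ± 1.61, SE; edgeR adjusted p = 0.579). Its common counterpart Cox4i1 had a log2 fold change of 0.16 ± 0.23.

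A list of other genes that respond to low oxygen, or regulate that response (Hif1a, Epas1 and Vhl), was also mostly lower in KO. By fold change 12 of 13 tested were lower (median -1.40 on the log2 scale), beside 49.1% of all tested genes. Hif1a had -1.95 ± 0.58 without overlap, while Vegfa (-0.15 ± 1.0) and Slc2a1 (-0.29 ± 0.52) lay near 0, with overlap (SE). Bnip3, a mitophagy receptor, stood at 18.2, 13.1 and 30.5 CPM in KO replicates 1 to 3 and at 152.0, 169.7 and 41.2 CPM in HET replicates 1 to 3 (-2.56 ± 0.60, SE). Pdk1, a kinase that restrains pyruvate dehydrogenase, stood at 17.6, 24.0 and 29.5 CPM in KO libraries and at 192, 122 and 32.4 CPM in HET libraries (-2.28 ± 0.63). As for Ndufa4l2, HET replicate 3 lay close to the KO libraries in both genes. The median of the list was -0.54 without HET replicate 1, -0.79 without HET replicate 2 and -0.84 without KO replicate 2.

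Myh11 encodes the heavy chain of smooth muscle myosin and lies at chr16:14194535-14291372 on the minus strand. It stood at 0.500, 0.258 and 16 CPM in KO replicates 1 to 3, from 22, 10 and 404 counts, and at 8.36, 244 and 21.3 CPM in HET replicates 1 to 3, from 236, 8591 and 543 counts. KO replicate 3 lay above HET replicate 1, so the groups overlapped, and HET replicate 2 had 11.5 times the level of the next library. The means were 5.59 ± 9.03 CPM in KO and 91.3 ± 132.7 CPM in HET (SD, n = 3 each), a log2 fold change of -4.04 ± 1.98 (SE; edgeR unadjusted p = 0.085, adjusted p = 0.592). Leaving out HET replicate 2 gave -1.41, and leaving out KO replicate 3 gave -7.90 (edgeR adjusted p = 0.393). Of all tested genes, 0.318% differed at least as widely between their highest and lowest library on the log2 CPM scale as Myh11, whose range was 9.58 log2 units, against a median range of 1.26 over all tested genes. The ranges of Ndufa4l2 (8.99), Cspg4 (8.46) and Rgs4 (8.13) were reached by 0.535%, 0.842% and 1.04% of tested genes, and those of Rgs5 (4.92) and Mcam (3.03) by 6.92% and 17.3%.

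**Figure D2:**
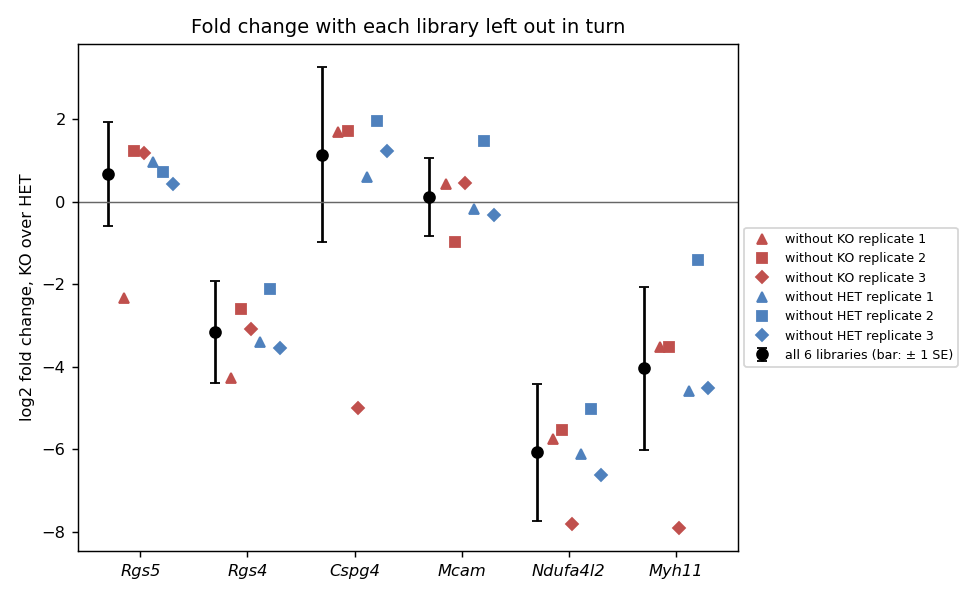
Log2 fold change of KO over HET (y axis) for the 6 tested markers. Black points give the fit on all 6 libraries with ± 1 SE, and coloured points the fits without 1 library; Rgs5, Cspg4 and Mcam change sign when 1 library is left out, while Rgs4, Ndufa4l2 and Myh11 stay below 0 in each of these fits.

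Nonmuscle myosin heavy chains had fold changes nearer to 0. Myh9 had 1398 ± 300 CPM in KO and 1863 ± 675 CPM in HET (SD, n = 3 each; log2 fold change -0.42 ± 0.38, SE), and Myh10 had 271 ± 263 CPM in KO and 419.5 ± 245 CPM in HET (-0.63 ± 0.79). All 7 tested genes among 14 myosin heavy and light chains were lower in KO by fold change, with a median of -0.38 on the log2 scale and with Myl9, the light chain of smooth muscle, farthest from 0 (-1.93 ± 0.96, SE). All 18 tested of 20 smooth muscle contractile genes were lower by fold change (median -1.95 on the log2 scale), beside 49.1% of all tested genes; 4 had an unadjusted p under 0.05, beside 8.59% of all tested genes (4.29% lower in KO). With 1 library left out that median ran from -2.74 to -1.50. Cnn1, calponin, stood at 154.6, 24.5 and 76.4 CPM in KO replicates 1 to 3 and at 555, 592 and 224 CPM in HET replicates 1 to 3 (-2.42 ± 0.73, SE; edgeR unadjusted p = 0.0145, adjusted p = 0.579), with no overlap. Mylk had the smallest unadjusted p of the list (edgeR unadjusted p = 0.00919, adjusted p = 0.579). It had 4.33 ± 1.74 CPM in KO and 28.5 ± 26.5 CPM in HET (-2.72 ± 0.74, SE), also with no overlap. Acta2, smooth muscle actin, stood at 1338, 45.5 and 2179 CPM in KO replicates 1 to 3 and at 5655, 6455 and 1821 CPM in HET replicates 1 to 3 (-1.97 ± 1.2, SE), with overlap. Their summed level was 3126, 219 and 5263 CPM in KO replicates 1 to 3 and 10862, 13109 and 4220 CPM in HET replicates 1 to 3, so it overlapped between groups.

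Myocd, the gene of myocardin, which drives the smooth muscle programme through serum response factor, was too low to be tested. It had 0, 0 and 0.753 CPM in KO replicates 1 to 3 and 0.106, 2.82 and 0.196 CPM in HET replicates 1 to 3, and HET replicate 2 and KO replicate 3 were its highest libraries. Among 12 regulators of this programme, 11 were tested, 6 lower and 5 higher (49.1% of all tested genes were lower), with a median of -0.46. Srf had a log2 fold change of 0.39 ± 0.26, while Csrp1, a LIM protein of smooth muscle, had 358 ± 51.0 CPM in KO and 849 ± 363 CPM in HET (-1.24 ± 0.39, SE; edgeR adjusted p = 0.579). Hdac4 was also lower in KO, without overlap (-0.53 ± 0.19, SE). Lmo7 was higher in KO, with overlap (2.2 ± 0.91, SE).

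Further mural cell genes, 20 in number with 16 tested, had fold changes below 0 for 13 and above 0 for 3, beside 49.1% of all tested genes below 0. The groups were apart for 4 lower in KO and 1 higher, beside 7.42% and 8.1% of all tested genes. An unadjusted edgeR p under 0.05 was reached by 3 lower in KO and 1 higher, beside 4.29% and 4.3%. The median of the list was -1.37 on the log2 scale. Leaving out KO replicate 3 gave -2.18, while leaving out HET replicate 1, KO replicate 1 or KO replicate 2 gave -0.86, -0.91 and -0.94. Pdgfrb, the receptor that recruits pericytes, which fibroblasts also express, was abundant in all libraries, at 184, 138 and 270 CPM in KO replicates 1 to 3 and at 574, 371 and 195 CPM in HET replicates 1 to 3 (-0.95 ± 0.46, SE; edgeR adjusted p = 0.592). Notch3 stood at 11.4, 0.413 and 2.26 CPM in KO libraries and at 59.6, 11.6 and 13.0 CPM in HET libraries (-2.58 ± 1.25), with a narrow gap between KO replicate 1 and HET replicate 2. Cd248, endosialin, stood at 82.7, 16.6 and 169 CPM in KO libraries and at 959, 357.5 and 213 CPM in HET libraries (-2.51 ± 0.94). On the other side, Trpc6, a cation channel, stood at 12.9, 0.852 and 1.15 CPM in KO libraries and at 0.460, 0.370 and 0.118 CPM in HET libraries (3.95 ± 1.27). KO replicate 1, the library with the most Rgs5, thus also had the most Trpc6. Vtn, which brain pericytes express strongly, had no count in any KO library and reached 1.29 CPM in HET replicate 3.

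Ligands and receptors of pericyte recruitment showed no common direction, with 12 of 23 tested lower (49.1% of all tested genes were lower), 11 higher and a median of -0.02 on the log2 scale. Hbegf, a heparin-binding ligand of the EGF receptor, had the smallest unadjusted p, with 107, 93.7 and 218 CPM in KO replicates 1 to 3 and 23.9, 31.7 and 43.4 CPM in HET replicates 1 to 3 (2.08 ± 0.41, SE; edgeR unadjusted p = 0.00201, adjusted p = 0.579), and its groups did not overlap. Pdgfd, a ligand of PDGF receptor beta, had 19.6 ± 11.1 CPM in KO and 59.3 ± 40.7 CPM in HET (-1.59 ± 0.73).

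**Figure D3:**
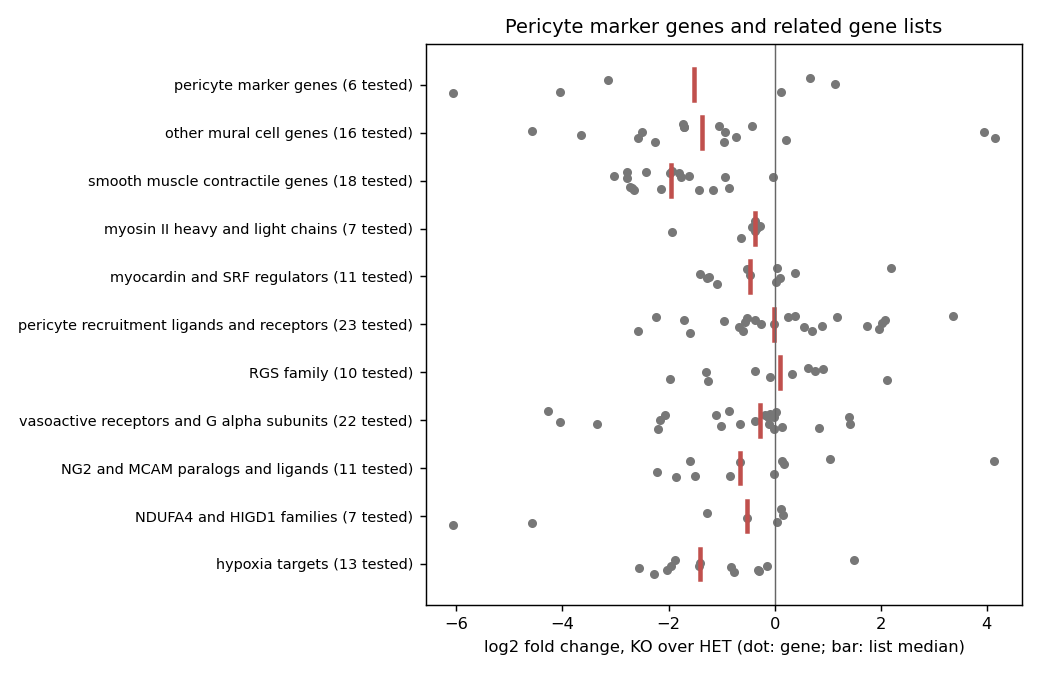
Log2 fold change of KO over HET (x axis) for each tested gene (grey dots, spread vertically for legibility) of the pericyte marker genes and 10 related gene lists, with each list's median as a red bar. The medians of the contractile genes (-1.95), the hypoxia list (-1.40) and other mural cell genes (-1.37) lie lowest among the 10 related lists drawn. The list labelled hypoxia targets also holds the regulators Hif1a, Epas1 and Vhl. The list of channel genes, with only 2 tested (median -1.63), is not drawn. The medians of the RGS family (0.11) and recruitment genes (-0.02) lie near 0. A gene may stand in more than 1 list.

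Levels can be set side by side between genes only per length. The deposited RPKM values turned out to use the genomic span of a gene, introns included, for 91.8% of 8426 genes whose span exceeded their exons by over 3 times (within 1%), and the exon length for 0.01% of them. The spans of the markers were between 2.0 times (Rgs4, Ndufa4l2) and 12.7 and 13.7 times (Myh11, Abcc9) the length of their exons, so RPKM sets long genes too low beside short ones if the reads came mostly from exons. Levels were therefore also expressed as CPM per kilobase of annotated exon. On that scale the medians over the 6 libraries were 6.41 for Rgs4, 5.40 for Mcam, 1.60 for Myh11, 0.971 for Ndufa4l2, 0.291 for Cspg4, 0.271 for Rgs5, 0.0462 for Kcnj8, 0.00576 for Abcc9 and 0 for Higd1b, beside 4.67 for the median tested gene. In deposited RPKM, Ndufa4l2 (median 0.391) stood above Myh11 (median 0.101), the reverse of the order per exon. All neighbours in this order overlapped in their ranges over libraries, so none differed from the next beyond that spread. Only 9.49% of tested genes had a lower median level per kilobase of exon than Rgs5, and 57.5% had one lower than Rgs4.

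Per kilobase of exon, Mcam had the highest level of the 9 in each KO library, with 5.62, 22.8 and 4.89, against 4.90, 0.133 and 2.11 for Rgs4 in KO replicates 1 to 3. In HET replicates 1 to 3, Rgs4 had 12.7, 43.0 and 7.91 and Ndufa4l2 had 18.5, 40.3 and 1.18, so that Ndufa4l2 was the higher in HET replicate 1 and Rgs4 in the others. In HET replicate 2 the levels per kilobase were 43.0 for Rgs4, 40.3 for Ndufa4l2, 32.2 for Myh11 and 22.8 for Mcam, and all other markers were under 1.

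The library with the highest level of Rgs4, Ndufa4l2 and Myh11, HET replicate 2, and the library with the most Cspg4, KO replicate 3, were also those with the highest sums of leukocyte and macrophage markers. The 12 leukocyte and macrophage markers summed to 37.4, 21.6 and 1194 CPM in KO replicates 1 to 3 and to 46.2, 1578 and 59.2 CPM in HET replicates 1 to 3. Of these sums Lyz2, which encodes lysozyme, made up 1037 CPM in KO replicate 3 and 1257 CPM in HET replicate 2, and Ptprc, the defining leukocyte gene, stood at 5.67 and 8.19 CPM there and at 0.0455 CPM or less in the other libraries. Adgre1, Tyrobp and C1qa likewise stood at 5.71 CPM or more in KO replicate 3 and HET replicate 2 and at 0.142 CPM or less elsewhere. Some genes of the list, Cd68, Csf1r, Cd14 and Cd53 among them, were present in every library. Csf1r, the macrophage growth factor receptor, stood at 4.78, 0.491 and 24.3 CPM in KO replicates 1 to 3 and at 20.8, 43.6 and 16.6 CPM in HET replicates 1 to 3. Cd14, a receptor for bacterial lipopolysaccharide, stood at 16.1, 9.5 and 17.7 CPM in KO replicates 1 to 3 and at 6.62, 16.7 and 11.1 CPM in HET replicates 1 to 3. Of the 7 leukocyte markers tested, 5 were lower in KO and 2 higher by fold change (49.1% of all tested genes were lower), with a median of -1.04 on the log2 scale that ran from -3.35 without KO replicate 3 to 1.84 without HET replicate 2. Their part in the marker levels was not tested.

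Endothelial transcripts were scarce. The 13 endothelial markers summed to 21 to 32.8 CPM in KO libraries and to 42 to 70.2 CPM in HET libraries, and Flt1 alone reached 60.5 CPM in HET replicate 2, while Cldn5 was at 0 in all 6 libraries and Cdh5 and Pecam1 reached 1.14 and 0.853 CPM at most, both in HET replicate 2. Of the 6 tested, 3 were lower and 3 higher in KO by fold change, beside 49.1% of all tested genes lower. Kdr, a VEGF receptor, was highest in KO replicate 1 at 12.8 CPM and reached 2.51 CPM in HET libraries (2.27 ± 1.38, SE), and Esam, a junction protein, stood at 0.728, 0.568 and 1.51 CPM in KO replicates 1 to 3 and at 0.106, 0.398 and 0.314 CPM in HET replicates 1 to 3, without overlap (1.75 ± 0.67). Flt1 (-1.36 ± 0.66) and Tek (-2.23 ± 1.39) went the other way, also without overlap. Tek stood at 0.0227, 0.0258 and 1.19 CPM in KO replicates 1 to 3 and at 2.09, 2.08 and 1.45 CPM in HET replicates 1 to 3. Glial and Schwann markers, a check because glia also express Cspg4 and Mcam, summed to 5.01 to 12.2 CPM in KO libraries and 5.17 to 21.6 CPM in HET libraries. Mbp was the largest part of this sum in every library, at 2.43 to 10.4 CPM in KO and 2.87 to 17.1 CPM in HET, and S100b reached 2.7 CPM. Foxd3 stood at 0 in all libraries and Sox10 at 0.515 CPM or less. Fibroblast markers summed to 3037.5 to 6199 CPM in KO libraries and to 7876 to 16642 CPM in HET libraries, so that the groups did not overlap in this sum. Vim alone made up 2870 of the 3037.5 CPM in KO replicate 2. There Col1a1, Col1a2, Dcn and Thy1 each stood at 2.56 CPM or less, while Pdgfra, Col3a1 and Pdpn stood at 124, 21.8 and 12.1 CPM. By single gene the groups were apart for 5 of 13 tested, all lower in KO, beside 7.42% of all tested genes apart and lower. Of 13 tested, 12 were lower in KO by fold change (49.1% of all tested genes were lower), with a median of -1.09 on the log2 scale that was -2.61 without KO replicate 1, -0.49 without KO replicate 2 and -0.38 without HET replicate 3. The 9 pericyte markers summed to 41.8, 77.5 and 79.9 CPM in KO replicates 1 to 3 and to 87.5, 511 and 64.0 CPM in HET replicates 1 to 3, with overlap.

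**Figure D4:**
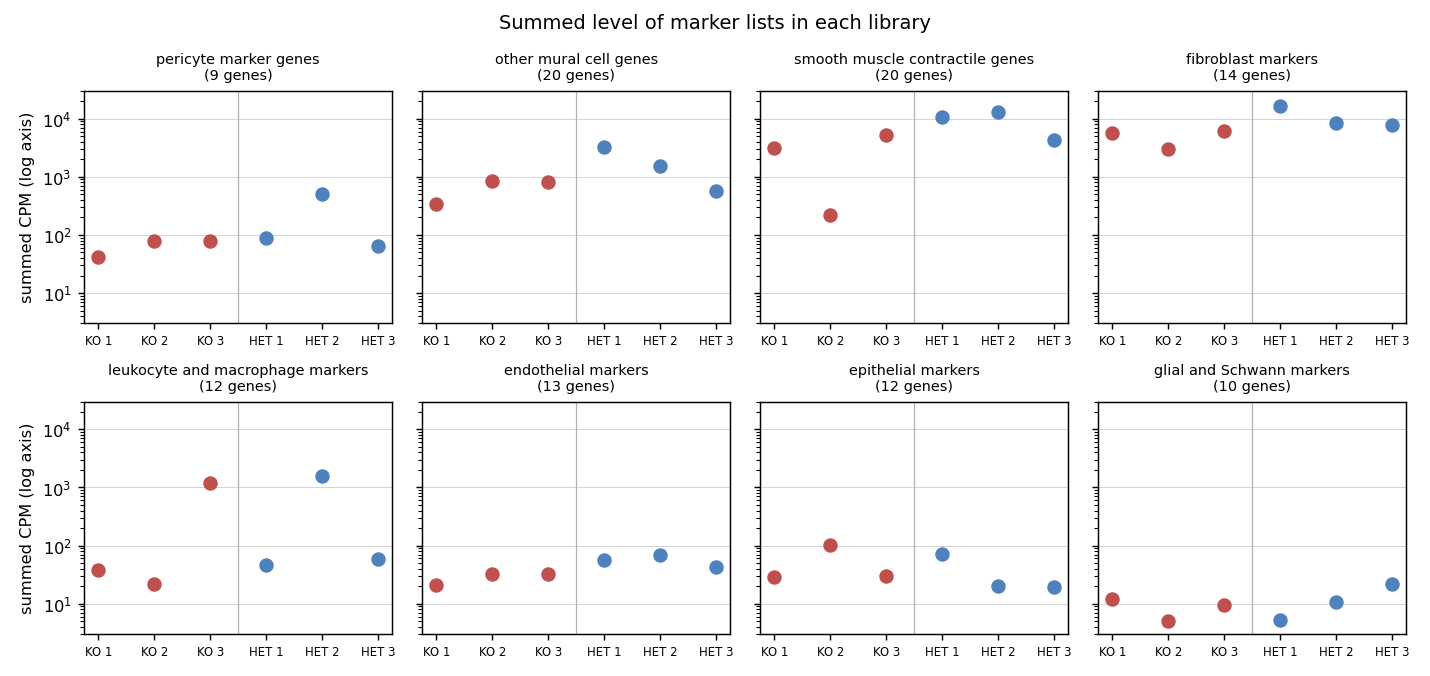
Summed level (CPM, log axis) of the pericyte marker genes and of 7 lists of related or other cell type markers in each library, KO left in red and HET right in blue. The leukocyte and macrophage list peaks in KO replicate 3 and HET replicate 2, the epithelial list in KO replicate 2, and the contractile list is lowest in KO replicate 2.

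The label of pericyte markers was thus met only in part. Mcam was present in every library and Rgs4 and Myh11 had at least 10 counts in each, but as said above these genes are not restricted to pericytes. Cspg4 ran from 2 to 1001 counts over the libraries and Ndufa4l2 from 1 to 1553 counts. Higd1b had no count, Kcnj8 and Abcc9 were barely detected, and Rgs5 did not exceed 6.48 CPM.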

How the data were processed

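Per the labels' protocols, the 6 libraries were made from total RNA with a stranded kit that depletes ribosomal RNA. Tools listed in the submitters' processing notes are cutadapt 1.2.1, Bowtie2 and Partek, and builds GRCm38 and mm10; no annotation or counting method is stated. Each deposited table holds an estimated count per gene (85.0% of values whole) and, made by the authors from those counts, an RPKM value, the ratio of both being constant within a library to 0.0011% over 14977 genes. From 48408 rows, 30 with misplaced columns were left out and 7 repeated symbols were summed, leaving 48368 symbols.

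Estimated counts were rounded. Genes passing filterByExpr at its defaults were tested for KO against HET by edgeR's quasi-likelihood method (version 4.0.16, R 4.3.3) after TMM scaling (log2 of KO over HET, two-sided, Benjamini-Hochberg, threshold 0.05). The SE is the log2 fold change over the square root of F. The SD is over 3 libraries, and log2 CPM used a prior count of 2. Positions, spans and exon lengths are from GENCODE M21 (GRCm38). Its spans matched the length behind the deposited RPKM within 1% for 91.8% of the genes whose span exceeded their exons by over 3 times. For Ndufa4l2 the span is 2188 bases and the length behind RPKM 2214 bases. Alternatives were other scalings and filters, DESeq2 1.42.0, limma 3.58.1 (voom, and log2 of RPKM plus 1 or 0.1), a block on the title number that 2 libraries share, and fits with libraries left out. The edgeR step was checked on simulated counts with known fold changes.

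Groups follow the genotype labels, and replicate numbers are in accession order and pair nothing. All 9 markers are named, as are fixed genes (Pdgfrb, Notch3, Acta2, Kcnj11, Abcc8, Ndufa4, Higd1a, Myh9, Myh10). From further lists, genes were drawn from the 4 with the smallest unadjusted p, but not all 4 are given for every list. Others were named after their values were seen. These are Rgs16, the G alpha subunits other than Gnas, Krt19, Shmt2, Cox4i1, Myl9, Srf, Myocd, Vtn, Col1a2, Vegfa, Slc2a1, Epas1 and Vhl. The single fibroblast, endothelial, glial and leukocyte markers were also named in this way. Markers and lists were chosen with earlier results of these data known.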

Additional observations from a re-analysis of the deposited data

How the results depend on the processing

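No gene passed the adjusted threshold in any edgeR or limma fit run. DESeq2 called 201 genes, 1 of the markers among them (Ndufa4l2). The number of genes at an unadjusted p under 0.05 was 1511, and 648 to 2281 when 1 library was left out (lowest without HET replicate 2, 917 without KO replicate 2, highest without KO replicate 3). Rgs4, Ndufa4l2 and Myh11 had negative log2 fold changes in every fit run. Rgs5 was reversed in limma-voom (-0.71) and ran from -2.34 to 1.23 with 1 library left out. Cspg4 was reversed in limma-voom (-2.12), with the replicate block (-3.17) and when KO replicate 3 and HET replicate 3 were both left out (-4.92), and ran from -4.99 to 1.95 with 1 library left out. Mcam was -0.01 when both were left out and ran from -0.98 to 1.48 with 1 library left out. The replicate block, a term for the 1 shared title number, left 0 genes past the adjusted threshold and gave 1055 genes at an unadjusted p under 0.05, no longer with Rgs4 (edgeR unadjusted p = 0.0699, adjusted p = 0.737); no paired analysis was possible because the groups share only 1 number. Scaling by library size only put the median log2 fold change of all tested genes at 0.15, with 532 genes lower and 1200 higher at an unadjusted p under 0.05, beside 755 lower and 756 higher under TMM. On log2(RPKM + 1), where low genes are compressed, Ndufa4l2 had -2.36 and Myh11 -0.56. Over the alternatives, list medians moved by more than the spread between libraries 34 times and by less 270 times, and that of the other mural cell genes ran from -2.18 to -0.86 with 1 library left out. Kcnj8 and Abcc9, with at most 12 counts in a library, are limited by depth.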

Other observations

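The genes whose pattern over the 6 libraries was most like the mean standardized log2 CPM of the 6 tested markers were Wls, Mff, Atp6v0c, Gm15956, Trnp1, Inpp5a, Zbtb7b, Nupr1, Cd53 and Avil. Their Pearson r was 0.98 to 0.989 over 6 libraries, a description with no test, picked from 17584 genes. The mean profile was -0.23, -0.93 and -0.03 in KO replicates 1 to 3 and 0.16, 1.04 and -0.01 in HET replicates 1 to 3, so likeness to it mostly means high in HET replicate 2 and low in KO replicate 2. Wls, which carries Wnt ligands to the cell surface, stood at 228, 169.6 and 306 CPM in KO replicates 1 to 3 and at 341, 594 and 299.5 CPM in HET replicates 1 to 3. Nupr1, a stress-induced nuclear protein gene, stood at 31.2, 18.7 and 36.7 CPM in KO replicates 1 to 3 and at 62.6, 151.6 and 49.7 CPM in HET replicates 1 to 3, without overlap. Cd53, a tetraspanin of leukocytes, was at 8.74, 4.44 and 11 CPM in KO replicates 1 to 3 and at 14.7, 35.4 and 8.35 CPM in HET replicates 1 to 3.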
